A study of Homo sapiens with 2 samples.

Results

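The genes described here encode the hydrolases of the lysosome, the cathepsin proteases among them, together with lysosomal membrane and activator proteins, a secreted cathepsin inhibitor and 2 transcription factors of the pathway. They were chosen by gene symbol, from a fixed list of 48, through the platform annotation of the array probes. Of the 48 genes, 47 had a named probe, among 20046 named genes in all, and they were read by 76 probes. CD63 had no named probe and was not analysed here.

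The study compared radiation-adapted A4573 cells, whose sample carries the label 4 Gy, with wild-type A4573 cells. A4573 is an established human cell line from Ewing sarcoma, a cancer that arises mostly in the bones of children and young adults. Each of the 2 cultures gave total RNA for 1 Illumina bead array, so no difference below has a replicate check, a test or an error between cultures. In such bulk RNA, fewer cells that express a gene and less of its RNA per cell cannot be told apart. The labels give no schedule of irradiation, no time between irradiation and harvest, and no statement of whether the adapted culture is a clone or a pool.

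Lysosomes break down proteins, glycans, lipids and nucleic acids at acid pH. Their soluble enzymes are made in the endoplasmic reticulum and reach the lysosome mostly by mannose 6-phosphate receptors, while membrane proteins such as the LAMP family line its inner face. Many of these genes carry an E-box element in their promoters, the CLEAR element, which is bound by TFEB and TFE3, and the mTOR kinase complex on the lysosome holds both factors in the cytoplasm when nutrients are plentiful.

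The adapted array detected 16712 of 47323 probes (35.3%) and the wild-type array 17903 (37.8%), at a detection p of at most 0.01 against the negative controls of the array. Median intensities were 140 in the adapted array and 139 in the wild-type array. Values below are normalised log2 intensities, and each difference is the adapted value minus the wild-type value, so a negative one means lower in the adapted cells. Levels are not set against each other between genes, since probes differ in how well they hybridise. The cell line label was checked against its markers: all 7 Ewing sarcoma markers looked at, among them CD99, NKX2-2 and FLI1, were detected in both arrays. Of 10 markers of macrophages and other leukocytes, which are rich in lysosomes, 3 were detected in both arrays and 7 in neither. The 3 were CD14 (-0.21), AIF1 (0.48) and FCGR3A (-0.42), which differed in sign and lay within 1.5-fold. Summed linear values of the 10 were 450.0 in the adapted array and 453 in the wild-type array. These sums include the 7 undetected markers.

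Lysosomal genes were mostly lower in the adapted cells. Both arrays detected 40 of the 47 genes, while CTSO and GM2A were detected in the wild-type array only and 5 genes in neither (CTSS, CTSZ, HEXA, HGSNAT and TFEB). Of the 40, 14 (35%) were at least 1.5-fold lower in the adapted array, against 11.9% of all 9828 genes detected in both arrays, and 1 was at least 1.5-fold higher, against 12.2%. A difference below 0 was found for 32 of the 40 (80%), against 46.8% of all genes. The median difference was -0.45 over the 40 genes and 0.04 over all genes. Among genes with a mean log2 value of 9 or more, 7 of 15 lysosomal genes were at least 1.5-fold lower, against 9.72% of all genes as bright. Among dimmer ones, 7 of 25 were, against 13% of all genes.

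**Figure D1:**
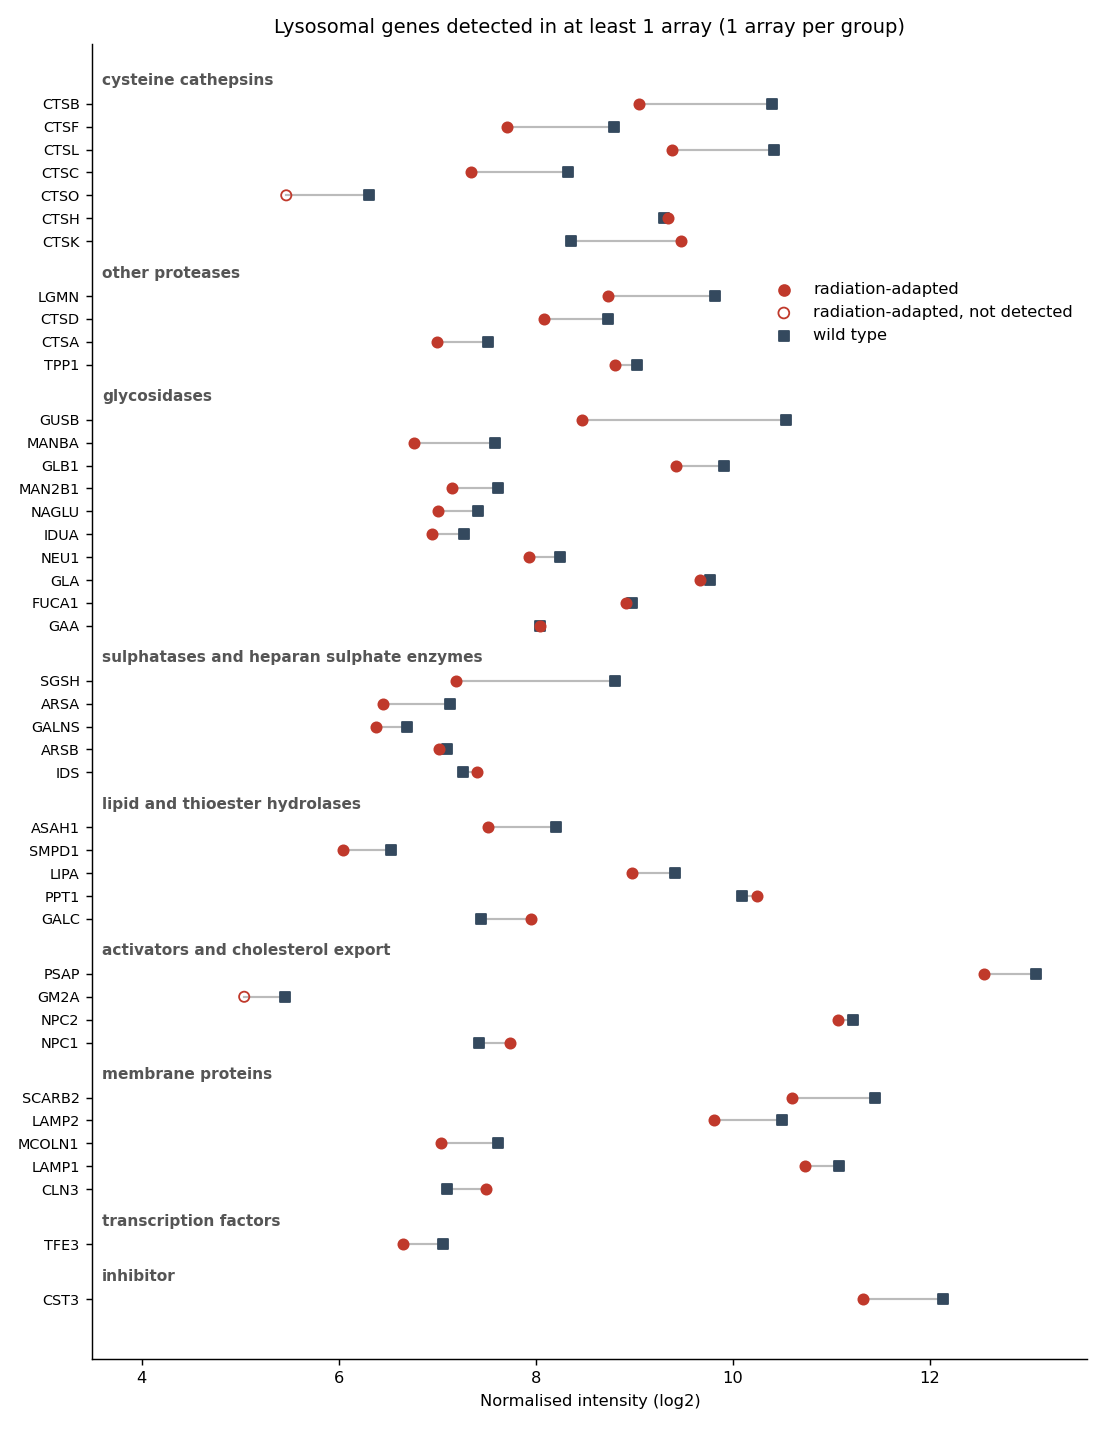
Normalised log2 intensity of the 42 lysosomal genes detected in at least 1 array, in the radiation-adapted array (circles, open where not detected) and the wild-type array (squares), grouped by role, with 1 array per group. Most circles lie left of their square, with the widest gap for GUSB, and CTSK has the widest gap the other way.

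**Figure D2:**
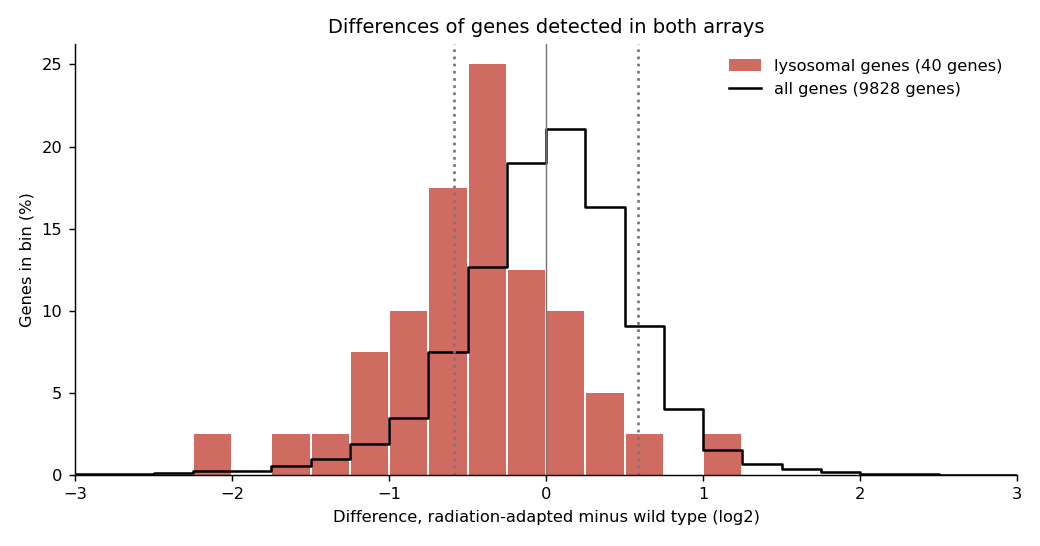
Share of genes (%) in bins of the log2 difference, adapted minus wild type, for the 40 lysosomal genes (filled bars) and all 9828 genes detected in both arrays (line); dotted lines mark 1.5-fold. The lysosomal genes centre at -0.45 and all genes at 0.04.

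Cysteine cathepsins, the papain-like proteases of the lysosome, held 4 of the 14 lower genes and the single higher one. Of 6 cysteine cathepsins of the fixed list detected in both arrays, 4 (CTSB, CTSF, CTSL and CTSC) were at least 1.5-fold lower, against 11.9% of all genes. CTSK was at least 1.5-fold higher, against 12.2% of all genes, and CTSH was level. CTSV, a cysteine cathepsin outside the fixed list, read 8.67 in adapted cells and 8.33 in wild-type cells (0.34). Cathepsin B, CTSB, a broad endopeptidase that also trims dipeptides from chain ends, read 9.05 in the adapted array and 10.40 in the wild-type array, a difference of -1.35 or 2.55-fold lower. Its dimmer probe gave -1.17, so both probes placed it below the wild-type level.

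Cathepsin L, CTSL, a strong endopeptidase of general protein turnover, read 9.38 in adapted cells and 10.42 in wild-type cells (-1.04, or 2.05-fold lower). Its 2 other probes gave -1.13 and -0.43, the last of these from a probe near background. Cathepsin C, CTSC, a dipeptidyl peptidase that activates granule proteases in leukocytes, read 7.35 in adapted cells and 8.32 in wild-type cells (-0.98, or 1.97-fold lower), and its 3 other probes gave -0.94, -0.80 and -0.22. For these genes the dimmest probe showed the smallest difference.

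Cathepsin F, CTSF, read 7.71 in the adapted array and 8.80 in the wild-type array by its single probe (-1.09, or 2.13-fold lower). Cathepsin O, CTSO, read 5.47 in the adapted array, where it was not detected, and 6.30 in the wild-type array, at least 1.76-fold lower. In the adapted array its detection p of 0.0117 lay just past the limit of 0.01. That is a weak bound: among all 1004 genes detected in the wild-type array only, 21% reached 1.5-fold in this way, and without background correction the bound was 1.22-fold. The aminopeptidase cathepsin H, CTSH, read 9.34 in adapted cells and 9.30 in wild-type cells.

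Cathepsin K, CTSK, the collagen-degrading protease best known from osteoclasts, went the other way. It read 9.47 in adapted cells and 8.36 in wild-type cells, a difference of 1.12 or 2.17-fold higher, by its single probe. Of 7 osteoclast markers, ACP5 had no named probe, and of the other 6 (CALCR, DCSTAMP, OCSTAMP, MMP9, TNFRSF11A and ITGB3), none was detected in either array at a detection p of at most 0.01. Their summed linear values were 152 in the adapted array and 158 in the wild-type array. Those sums come from undetected probes only, so they do not compare osteoclast transcripts between the cells. Fibroblasts also make cathepsin K, and of 9 fibroblast markers 7 were detected in both arrays. At least 1.5-fold higher were 3 (DCN at 1.97, COL3A1 at 0.92, LUM at 0.78), against 12.2% of all genes. As far below were 2 (THY1 at -1.17, COL1A1 at -0.74), against 11.9%. COL1A2 (0.20) and FAP (0.48) were within 1.5-fold, and PDGFRA and POSTN were detected in neither array. Without background correction 2 were higher and 1 lower, with COL3A1 (0.48) and COL1A1 (-0.32) short of 1.5-fold. The summed linear values of the 9 were 2958 in the adapted array and 2809 in the wild-type array. These sums include the undetected PDGFRA and POSTN and depend most on the brightest probes. THY1, at 9.04 in adapted cells and 10.21 in wild-type cells, offsets the higher markers in them. The sums therefore do not show that fibroblast transcripts were level. The part of the fibroblast markers in the CTSK difference was not tested.

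The other proteases were all below their wild-type value, against 46.8% of all genes, and 2 of 4 were at least 1.5-fold lower, against 11.9%. Legumain, LGMN, an asparaginyl endopeptidase that cleaves cathepsin precursors to their mature chains, read 8.74 in adapted cells and 9.82 in wild-type cells (-1.08, or 2.11-fold lower), and its second detected probe gave -1.20. The aspartic protease cathepsin D, CTSD, read 8.08 in the adapted array and 8.73 in the wild-type array (-0.65, or 1.57-fold lower). Of the 14 lower genes it was the closest to the 1.5-fold limit. The carboxypeptidase CTSA, which shields beta-galactosidase and neuraminidase in a complex, read -0.52, and the tripeptidyl peptidase TPP1 read -0.22.

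Cystatin C, CST3, a secreted inhibitor of cysteine cathepsins, was also lower. It read 11.32 in adapted cells and 12.14 in wild-type cells (-0.82, or 1.76-fold lower). Of 12 other cathepsin inhibitors of the cystatin and serpin families, 11 had a named probe and CSTB alone was detected in both arrays, at 11.25 in adapted cells and 11.37 in wild-type cells (-0.12).

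Glycosidases, which take sugars off glycoproteins, glycolipids and glycosaminoglycans, included the gene furthest below its wild-type level. Beta-glucuronidase, GUSB, had an intensity of 496 in the adapted array and 1465 in the wild-type array, or 8.47 and 10.54 after normalisation. The difference of -2.08 is 4.22-fold lower, and 43 of the 9828 genes had a lower value. GUSB is often used as a constant control gene in PCR assays, and here it rested on a single probe. It belongs to a family with 19 pseudogenes in RefSeq, which a probe may not tell apart. Of the 5 pseudogenes with a named probe, GUSBP2 was also lower by all 3 of its probes (-0.74, -1.01 and -0.93), while GUSBP11 read 0.37 and GUSBP14 read 0.14. GUSBP5 and GUSBP19 were not detected in either array.

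Beta-mannosidase, MANBA, read 6.76 in adapted cells and 7.58 in wild-type cells (-0.82, or 1.77-fold lower). The other 8 glycosidases detected in both arrays lay within 1.5-fold, from -0.49 for beta-galactosidase, GLB1, to 0.00 for the glycogen-degrading GAA. Between them stood MAN2B1 (-0.47), NAGLU (-0.40), IDUA (-0.33), NEU1 (-0.31), GLA (-0.11) and FUCA1 (-0.06). GAA read 8.05 in adapted cells and 8.04 in wild-type cells, its probes differed in sign, at 0.00 and -0.27, and both GLB1 probes were below 0, at -0.49 and -0.65. HEXA, a hexosaminidase subunit, was not detected, at intensities of 119 in the adapted array and 120 in the wild-type array.

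Sulphatases and the enzymes of heparan sulphate breakdown were led by SGSH, the sulphamidase that removes sulphate from the amino groups of heparan sulphate. It read 7.19 in adapted cells and 8.81 in wild-type cells, a difference of -1.61 or 3.06-fold lower by its single probe. Arylsulphatase A, ARSA, which degrades the myelin lipid sulphatide, read 6.45 in the adapted array and 7.13 in the wild-type array (-0.68, or 1.61-fold lower), and its second probe gave -0.85. The remaining sulphatases were within 1.5-fold, with GALNS at -0.31, ARSB at -0.08 and iduronate sulphatase, IDS, at 0.14. HGSNAT, the acetyltransferase of the same pathway, was not detected by any of its 3 probes.

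The lipid and thioester hydrolases were split. Acid ceramidase, ASAH1, read 7.52 in adapted cells and 8.21 in wild-type cells (-0.69, or 1.62-fold lower). Acid sphingomyelinase, SMPD1 (-0.49), and the acid lipase LIPA (-0.43), which frees cholesterol from its esters, were within 1.5-fold. The palmitoyl-protein thioesterase PPT1 read 10.24 in adapted cells and 10.09 in wild-type cells (0.15). Galactosylceramidase, GALC, which cleaves the main lipid of myelin, read 7.95 in adapted cells and 7.44 in wild-type cells, and its difference of 0.51 was the next above 0 after that of CTSK.

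Prosaposin, PSAP, the precursor of the saposins that present lipids to these hydrolases, read 12.55 in the adapted array and 13.08 in the wild-type array (-0.53), and its second probe gave -0.65. The ganglioside activator GM2A read 5.04 in the adapted array, where it was not detected, and 5.46 in the wild-type array, too close to the lowest detected value for a bound. The pair of proteins that carry cholesterol out of the lysosome were both within 1.5-fold, with NPC2 at 11.07 in adapted cells and 11.22 in wild-type cells (-0.14) and NPC1 at 7.74 in adapted cells and 7.42 in wild-type cells (0.32).

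Of the membrane proteins, SCARB2, an abundant protein of the lysosomal membrane, read 10.60 in adapted cells and 11.44 in wild-type cells (-0.84, or 1.79-fold lower). LAMP2, a major glycoprotein of the lysosomal membrane that also serves chaperone-mediated autophagy, read 9.81 in adapted cells and 10.50 in wild-type cells by its brightest probe (-0.69, or 1.61-fold lower). Its 5 other probes gave -0.42, -0.39, -0.07, 0.10 and 0.32, so its probes differed in sign, and their mean was -0.19. Which LAMP2 splice forms the probes read was not analysed here. LAMP1 read 10.73 in adapted cells and 11.08 in wild-type cells (-0.34).

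The calcium channel MCOLN1, whose loss causes mucolipidosis, read 7.03 in adapted cells and 7.62 in wild-type cells. Its difference of -0.58 fell just short of 1.5-fold, so it is not among the 14 lower genes. CLN3, a membrane protein lost in juvenile Batten disease, was above its wild-type level by both probes, at 0.40 and 0.11. Of the transcription factors, TFE3 read 6.66 in the adapted array and 7.06 in the wild-type array (-0.40). TFEB was not detected, at intensities of 130 in the adapted array (detection p 0.44) and 137 in the wild-type array (detection p 0.152), so its level could not be compared at this signal over background.

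Agreement between probes of a gene is the measure of scatter that 2 arrays allow. More than 1 probe passed detection in both arrays for 13 lysosomal genes, and the sign was shared by all such probes for 11 of them, with LAMP2 and GAA as the exceptions. Over 2326 genes of the whole array with such probes, the 2 brightest were compared. Of these pairs 24.9% differed in sign, and the scatter between probes corresponded to an SD of 0.28 per probe. That measure leaves out further probes, and by it LAMP2 agreed in sign (-0.69 and -0.42) and only GAA of the 13 differed. The SD per probe was 0.33 where the dimmer probe had a mean log2 value under 7 and 0.19 where it had 9 or more. The differences of the other 27 lysosomal genes detected in both arrays, GUSB, SGSH, CTSF and CTSK among them, rested on 1 probe each. The scatter includes real differences between transcripts of a gene and leaves out all variation between cultures.

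**Figure D3:**
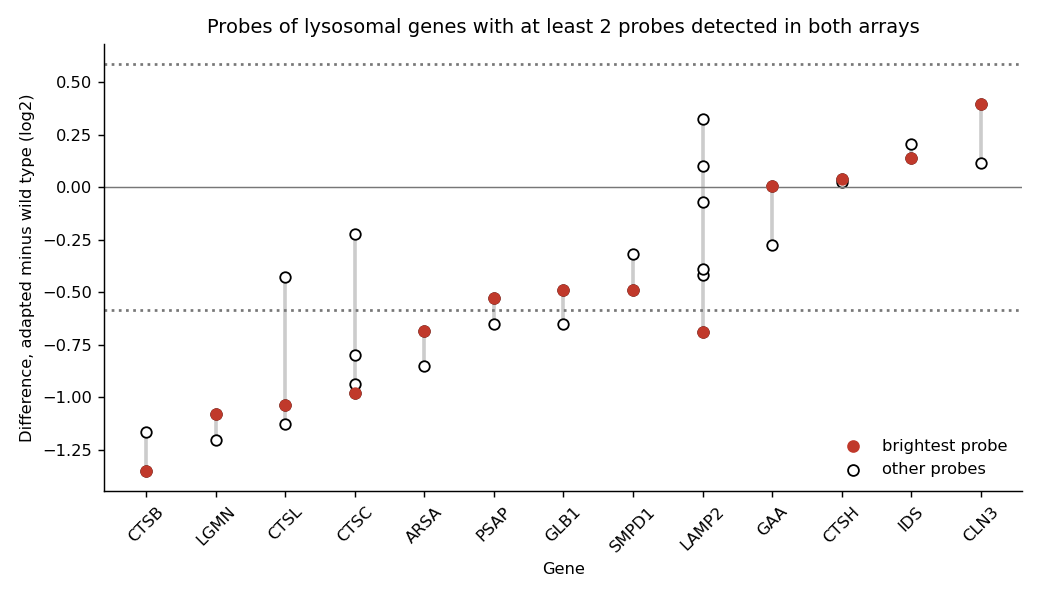
Log2 difference, adapted minus wild type, of every probe detected in both arrays for the 13 lysosomal genes with at least 2 such probes (filled, brightest probe; open, other probes); dotted lines mark 1.5-fold. All probes of CTSB, LGMN, CTSL, CTSC, ARSA, PSAP, GLB1 and SMPD1 lie below 0, and those of LAMP2 lie on both sides.

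Many of these differences were smaller without background correction. In that setting, 10 of the 40 genes were at least 1.5-fold lower, against 6.18% of all genes, and 1 was higher, against 4.71%, and the median was -0.29. GUSB was then at -1.78, CTSB at -1.19, SGSH at -1.11 and CTSK at 0.90. ARSA (-0.34), MANBA (-0.46), ASAH1 (-0.46) and CTSD (-0.49) were then within 1.5-fold. In the authors' processed values, 17 of the 40 genes were lower, against 14% of all genes, and 1 was higher, against 15%, with a median of -0.49. Of the 14 lower genes, all stayed below 0 under each of the 8 processing alternatives that applied to them, and 7 (GUSB, SGSH, CTSB, CTSF, LGMN, CTSL and CTSC) stayed at least 1.5-fold lower under each of them.

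**Figure D4:**
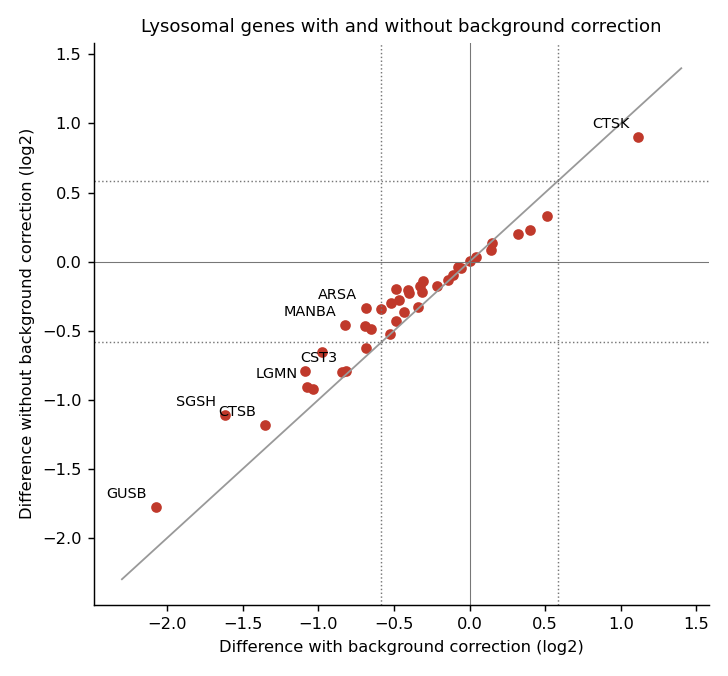
Log2 difference, adapted minus wild type, of the 40 lysosomal genes with background correction (x axis) and without it (y axis); the diagonal marks equal values and dotted lines mark 1.5-fold. Differences were closer to 0 without correction, most so for dim genes such as ARSA and MANBA, while CST3 lies near the diagonal.

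Genes of related function were read from 7 further lists, written from general knowledge but with earlier results of these data known. Of 28 other lysosomal enzymes, 14 were detected in both arrays, and their median was -0.41. At least 1.5-fold lower were 4 of the 14, against 11.9% of all genes, and 0 were as far above, against 12.2%; 2 were lower without background correction and 7 in the authors' processed values. The dipeptidyl peptidase DPP7 read 7.76 in adapted cells and 9.44 in wild-type cells (-1.68), and its other probes also lay below 0, up to -1.05. The carboxypeptidase PRCP read 10.92 in adapted cells and 12.08 in wild-type cells (-1.16). The acid phosphatase ACP2 (-0.81) and the hyaluronidase HYAL2 (-0.78) were the others, and without background correction they read -0.58 and -0.45, short of 1.5-fold. The lysosomal phospholipase PLA2G15 was detected in the wild-type array only and was at least 1.61-fold lower, a weak bound, since its difference was -0.23 without background correction.

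Of 26 other lysosomal membrane proteins, 21 were detected in both arrays, and their median was -0.20. By at least 1.5-fold, 4 of the 21 were lower, against 11.9% of all genes, and 0 were higher, against 12.2%. The transporter ABCA2 read 6.67 in adapted cells and 7.78 in wild-type cells (-1.11). The ion channel TMEM175 (-0.95), TMEM192 (-0.93) and the nucleic acid transporter SIDT2 (-0.73) were the others. Without background correction 2 of the 21 were lower, with TMEM192 (-0.37) and SIDT2 (-0.57) short of 1.5-fold. For the proton pump that acidifies the lysosome, the median over 17 subunits and accessory proteins was -0.09. None of the 17 was at least 1.5-fold lower and 1 was higher, ATP6V0A2, at 7.43 in adapted cells and 6.54 in wild-type cells (0.89), where all genes gave 11.9% lower and 12.2% higher. TCIRG1 had the lowest difference of the 17 (-0.57), just short of 1.5-fold. Without background correction ATP6V0A2 read 0.47, TCIRG1 read -0.34 and 0 subunits were past 1.5-fold. The authors' processed values gave 2 higher and 1 lower, the lower one being TCIRG1 (-0.65).

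The sorting machinery that delivers enzymes to the lysosome had a median of -0.05 over 17 genes, of which 0 were at least 1.5-fold lower, against 11.9% of all genes, and 1 was higher, against 12.2%. The higher one, the adaptor subunit AP1G1 (0.79), read 0.19 by its other probe and 0.44 without background correction, and the authors' processed values gave 3 higher genes. The sorting receptor SORL1 was at least 3.10-fold lower and not detected in the adapted array, and CLN6, an endoplasmic reticulum protein needed for enzyme export, was at least 1.91-fold higher and not detected in the wild-type array. Without background correction their differences were -0.77 for SORL1 and 0.38 for CLN6, which is short of 1.5-fold. Both mannose 6-phosphate receptors, M6PR and IGF2R, were on this list and within 1.5-fold.

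Autophagy genes had a median of -0.03, and 6 of 22 were at least 1.5-fold lower, against 11.9% of all genes, and 0 higher, against 12.2%. GABARAPL1, a ubiquitin-like protein that coats autophagosomes, read 8.33 in adapted cells and 10.20 in wild-type cells (-1.88, or 3.67-fold lower). Its relatives MAP1LC3A (-1.04) and MAP1LC3B (-0.99), the initiation factor ATG13 (-0.96), the cargo receptor SQSTM1 (-0.69) and UVRAG (-0.67) were also lower. The relatives GABARAP (0.53) and GABARAPL2 (-0.004) were within 1.5-fold. Without background correction 4 of the 22 were lower, with ATG13 (-0.36) and UVRAG (-0.43) short of 1.5-fold, and in the authors' processed values 6 were lower and 2 higher. The autophagy receptor optineurin, OPTN, was at least 5.71-fold lower and not detected in the adapted array, at a detection p of 0.0104, and its difference without background correction was -1.23.

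Among 19 detected genes that control TFEB, the median was 0.14, and 2 were at least 1.5-fold lower and 2 higher, near the shares of all genes (11.9% and 12.2%). DEPTOR, an inhibitor of the mTOR kinase, read 8.76 in adapted cells and 6.45 in wild-type cells (2.31), and RPTOR, the subunit by which the mTOR complex binds its substrates, read 6.90 in adapted cells and 5.84 in wild-type cells (1.06). FNIP2 (-0.74) and the lysosomal scaffold subunit LAMTOR2 (-0.69) were lower, while MTOR itself read 8.92 in adapted cells and 8.88 in wild-type cells. Without background correction DEPTOR read 1.45 and LAMTOR2 -0.67, and RPTOR (0.45) and FNIP2 (-0.27) were short of 1.5-fold. MITF and TFEC, the other 2 factors of the TFEB family, were not detected in either array.

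**Figure D5:**
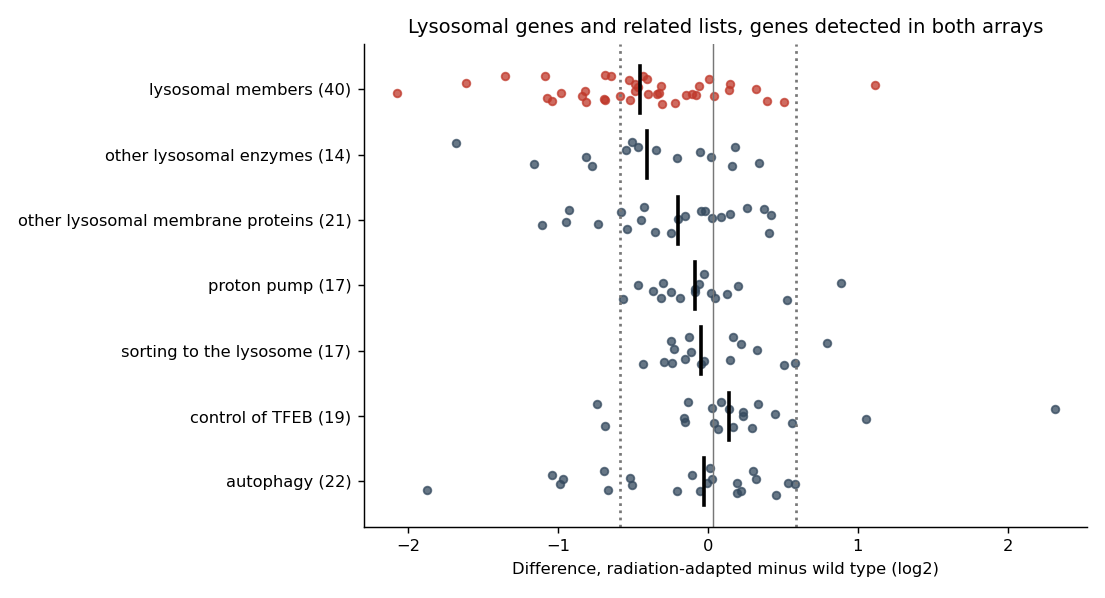
Log2 difference, adapted minus wild type, of each gene detected in both arrays (points; vertical position within a list is arbitrary) for the 40 lysosomal genes and 6 related lists, with the number of genes in brackets. Black bars mark list medians, from -0.45 for the lysosomal genes to 0.14 for the control of TFEB, the thin line the median of all genes (0.04) and dotted lines 1.5-fold.

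Core motifs of the CLEAR element were looked for in promoter windows taken from RefSeq on GRCh38.p14. Each window had 300 bases, from 250 before to 50 after the start of the gene. Windows were given for 33 of the 47 genes with a named probe. The core CACGTG, searched on both strands, was found for 10 of the 33 (30.3%), against 8.77% of all 27305 genes with a window. All 10 also held the longer TCACGTG, against 4.49% of all genes. The palindrome TCACGTGA, which contains both of those motifs, was found for 6 (18.2%), against 1.18%. The CLEAR element is known from lysosomal genes such as these, so these higher shares are not an independent finding.

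These 10 sites are printed because they show which lysosomal genes hold a match in the window and what each gene did. Sites outside the window were not looked for. Each line gives 60 bases around the longest match, the first where there were several, 5′ to 3′ on the strand of the gene. Capitals mark the match, TCACGTGA, TCACGTG or the reverse complement CACGTGA, and the genes run from the lowest difference to the highest.
CTSF (chr11:66568697-66568756, minus strand): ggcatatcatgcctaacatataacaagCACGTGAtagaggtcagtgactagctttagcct
CTSD (chr11:1763942-1764001, minus strand): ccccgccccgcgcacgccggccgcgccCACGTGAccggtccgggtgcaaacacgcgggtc
MCOLN1 (chr19:7522556-7522615, plus strand): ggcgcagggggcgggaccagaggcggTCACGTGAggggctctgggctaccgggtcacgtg
CTSA (chr20:45891283-45891342, plus strand): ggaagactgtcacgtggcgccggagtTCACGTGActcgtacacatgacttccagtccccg
LAMP1 (chr13:113297184-113297243, plus strand): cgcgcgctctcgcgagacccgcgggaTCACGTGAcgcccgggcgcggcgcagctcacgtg
NEU1 (chr6:31862916-31862975, minus strand): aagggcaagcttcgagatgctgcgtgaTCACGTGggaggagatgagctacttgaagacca
GALNS (chr16:88857089-88857148, minus strand): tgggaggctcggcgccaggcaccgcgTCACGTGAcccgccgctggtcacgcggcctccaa
ARSB (chr5:78986086-78986145, minus strand): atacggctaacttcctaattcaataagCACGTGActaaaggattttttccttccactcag
GAA (chr17:80101478-80101537, plus strand): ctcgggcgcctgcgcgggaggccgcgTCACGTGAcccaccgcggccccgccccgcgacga
CLN3 (chr16:28492043-28492102, minus strand): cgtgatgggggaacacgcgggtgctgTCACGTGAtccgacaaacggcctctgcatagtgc

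The differences of these 10 genes spread from -1.09 for CTSF, whose match lies 123 bases before the gene start, to 0.40 for CLN3. Of the genes that hold the shorter TCACGTG and not the palindrome, CTSF and CTSD were at least 1.5-fold lower. NEU1 (-0.31) and ARSB (-0.08) were not. None of the 6 genes with the palindrome was at least 1.5-fold lower, against 11.9% of all genes, although MCOLN1 fell just short with -0.58. With so few genes, neither count can be told from the share of all genes. The others were CTSA (-0.52), LAMP1 (-0.34), GALNS (-0.31), GAA (0.00) and CLN3 (0.40). The 10 genes with a match had a median difference of -0.33 and the 20 without one, among those with a window and detected in both arrays, had -0.37. At least 1.5-fold lower were 2 of the 10 and 5 of the 20, against 11.9% of all genes. Windows were not given for 14 genes, SGSH, CTSB, LGMN and CTSK among them, so the comparison leaves out some of the genes furthest from their wild-type level. A match describes the letters of the window and does not show that a factor binds there.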

How the data were processed

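Total RNA was extracted with Trizol and labelled with biotin by the Illumina TotalPrep kit, per the labels' protocols. The deposited summary table holds, per the file headers, an average signal intensity and a detection p-value per probe and array, before normalisation (lowest intensities 102 in the adapted array and 100.0 in the wild-type array). The authors' processed table holds intensity values on a linear scale. Both of its columns have a median of 10.6, 27.7% of its values are negative, and once sorted the columns never differ by more than 0.5. Column direction was checked by rank: against the deposited intensities, Spearman's rho was 1.00 for the matching array and 0.861 for the other. The background subtraction and between-array scaling are inferred from these values, and the sources used here name no software.

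Probes were named by the platform annotation: of 47323 probes, 30113 carried 1 gene symbol and 8 carried several, and 17202 that it does not list are unnamed here. Symbols were updated by gene ID from RefSeq (GRCh38.p14; 30074 probes found), which was used for names only, besides the promoter windows. Main values came from neqc of limma 3.58.1 in R 4.3.3 (normal-exponential background from the detection p, offset 16, quantile normalisation, log2). Quantiles force both arrays to 1 distribution, so a change in overall RNA content is not seen, and dim probes are drawn towards a difference of 0 by the offset. The brightest detected probe stood for its gene. A gene detected in 1 array only was given a bound, in which the array that missed it stands at its lowest detected value or at the probe's own value, whichever is higher.

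Since each group is a single array, which limits the precision, nothing was tested, and counts are of genes past a fixed size, 1.5-fold. Lysosomal genes were all accounted for, with values in both arrays for those at least 1.5-fold apart, detected in 1 array only, bright, of differing probe sign or near the limit, and for TFEB, TFE3 and CST3; in related lists, up to 4 genes of at least 1.5-fold with the largest differences were named by rule, and the others were named after their values were seen. The genes and lists were chosen with earlier results of these data known. Steps were tested on simulated data. Tables were handled in Python 3.11.15 (pandas 2.3.3, numpy 2.4.6) and plotted with matplotlib 3.10.9.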

Additional observations from a re-analysis of the deposited data

How the results depend on the processing

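The counts and the median were recomputed without background correction, with median scaling in place of quantiles, in the authors' processed values (floor 16), with the detection p limit at 0.05, without any filter, with the mean over probes, with an offset of 50 and with the second brightest probe. The number of genes at least 1.5-fold lower ran from 9 to 17 and the median from -0.49 to -0.29, and no gene at least 1.5-fold apart changed sign. With median scaling 9 genes were lower and 2 higher, GALC joining CTSK, and the median was -0.30. That scaling moved the median of all genes from 0.04 to 0.20, so the lysosomal median lay 0.50 below all genes, against 0.49 with quantiles, and it split all genes into 8.19% lower and 20.5% higher. TPP1, NPC2, GLA, ARSB and FUCA1 then lay above 0. Without background correction the median was -0.29. With the mean over probes LAMP2 read -0.19. No paired analysis was possible because each group has 1 array. Signal over background limits what can be said of TFEB, HEXA, CTSS, CTSZ, HGSNAT, GM2A and CTSO.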
